A study of Arabidopsis thaliana with 11 samples.

Results

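The genes described here lie on chromosome 2 between the loci AT2G33000 and AT2G37000, the stretch around FHE3, one of the loci that modify the shoot meristem defect of zwille mutants in crosses of Arabidopsis accessions. Members were the probe sets that the platform annotation gives to a single gene with a locus number in this stretch, which were 184 probe sets, together with the probe set of AGP30 (AT2G33790). The annotation used here does not list that probe set; it is named from the study, which lists it among the changed genes near FHE3, so its calls are not independent of the choice. The window then held 185 of the 22746 probe sets tested, for 184 genes, since AT2G35450 has 2 probe sets. The gene table has 482 loci in this stretch, of which 298 were not measured by name.

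RNA from whole embryos dissected at the torpedo stage, when the cotyledons grow out on either side of the future shoot meristem, was hybridised to 11 Affymetrix ATH1 arrays. All plants were wild-type accessions, though by the study Ler carries the erecta mutation and Fe-1 does not. The study calls 4 accessions ZLL-dependent, Fe-1 (3 arrays), Ler-0 (1 array), Nw-0 (1 array) and Bay-0 (1 array), and 3 ZLL-independent, Ts-1 (1 array), Van-0 (1 array) and Col-0 (3 arrays). A pair of samples carries conflicting labels, Ler-1 beside Ler-0 and Tossa del Mar-0 beside Ts-1, and the titles were followed here. Each embryo sample was read as 1 whole, so that fewer cells of a type and less RNA per cell cannot be told apart, and accessions with 1 array have no measured spread of their own.

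ZWILLE (ZLL), also called ARGONAUTE10, is an Argonaute protein that binds small RNAs and keeps the stem cells of the embryonic shoot meristem from being lost. Accessions differ in how far they need it, and FHE3 was mapped as a region in which the Ler and Col alleles act differently in mutant embryos. Such a region holds many linked genes, and which of them differ in RNA level between accessions is one of the questions a comparison of wild-type embryos addresses.

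Most genes of the window were expressed at much the same level in the 7 accessions. The means of the accessions spanned less than 2-fold for 161 members (87.0%, against 83.3% of all probe sets) and at least 3-fold for 10 members (5.41%, against 6.60%), with a median range of 0.46 on the log2 scale in the window and 0.48 over all probe sets. Among these 10, the range was widest for AT2G34840, at 4.11. The 53 members that differed among the accessions by limma's moderated F test at an adjusted p under 0.05 made up 28.6% of the window, against 31.0% of all probe sets. The median SD within accessions was 0.11 on the log2 scale both in the window and over all probe sets, and 30 members (16.2%, and 4549 of all 22746 probe sets) were below the lower quartile of signal on every array. Col-0 had the lowest mean for 55 members (29.7%, against 23.5% of all probe sets) and the highest for 14 (7.57%, against 9.38%).

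Fe-1 and Ler-0 were set against Col-0 as the pair of ZLL-dependent accessions for which the study drew up its gene list. A probe set was called at a Benjamini-Hochberg adjusted p under 0.05 from limma and a difference of at least 3-fold. In the window 4 members were called, which is 2.16%, against 0.703% of all probe sets. AT2G36550, AGP30 and AT2G35820 were higher in Fe-1/Ler-0 (3 members or 1.62%, against 0.242%), and AT2G33220 was lower (1 member or 0.541%, against 0.462%). Leaving AGP30 out gives 3 of 184. The called members are also on the list that the study gives for FHE3, which was drawn from these arrays. The p-values treat each array as a sample, although arrays of 1 accession are not independent samples of a group, and are too small for that reason. With 1 mean per accession in place of the arrays, which leaves 2 means against 1, the same 4 members were at least 3-fold apart at an unadjusted p under 0.05, and none was called after adjustment (adjusted p from 0.645 to 0.872, limma).

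**Figure D1:**
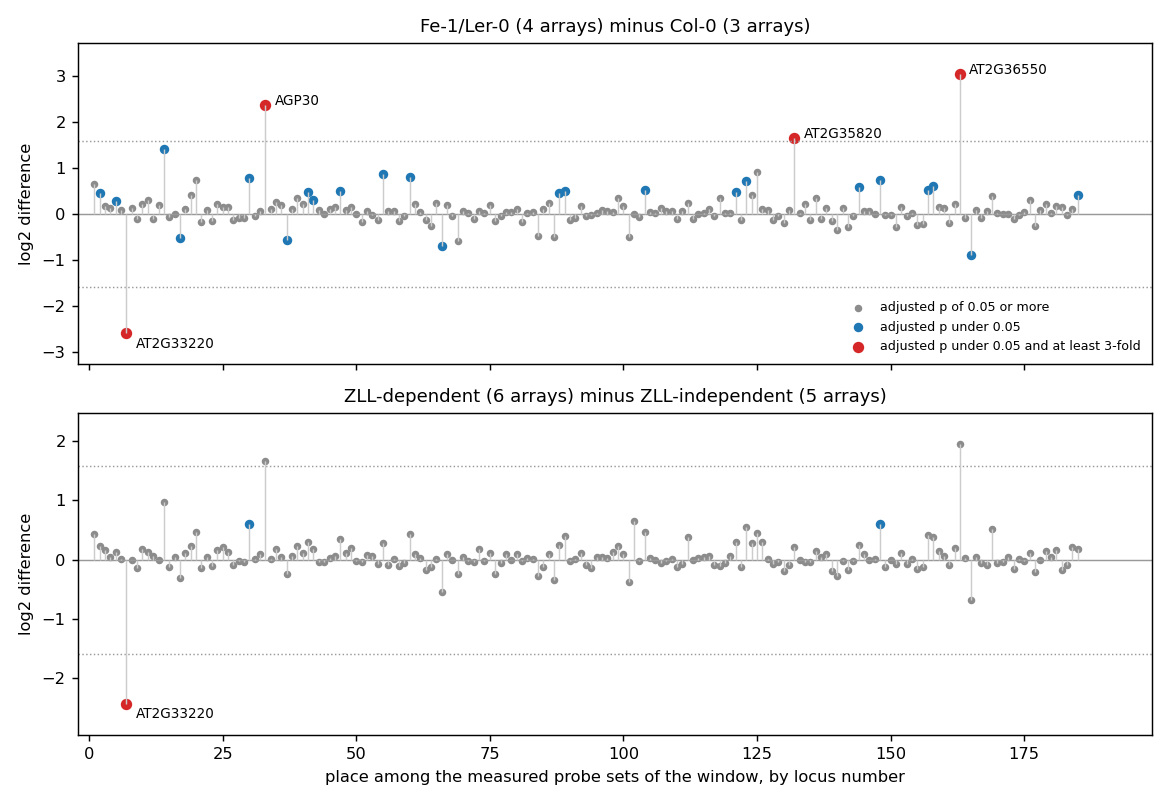
Difference in log2 signal of each of the 185 members (points) in the order of their locus numbers, for Fe-1/Ler-0 minus Col-0 (top) and for ZLL-dependent minus ZLL-independent accessions (bottom); dotted lines mark 3-fold. The 4 members called in the top panel stand far apart from one another along the window, and AT2G33220 alone is called in the bottom panel.

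AT2G33220 encodes a protein that the study describes as similar to MEE4, the product of a gene named after a maternal-effect embryo arrest mutant. Its log2 signal was 8.77, 8.66 and 8.67 in Fe-1 and 8.62 in Ler-0, against 11.46, 11.07 and 11.26 in Col-0. The other ZLL-dependent accessions were equally low, with 8.88 in Nw-0 and 8.78 in Bay-0, and the other ZLL-independent ones were high, with 11.35 in Ts-1 and 10.64 in Van-0. The 6 ZLL-dependent arrays lay within 0.27 of one another, and the nearest ZLL-independent array, Van-0, was 1.75 above the highest of them. Relative to Col-0 the level in Fe-1/Ler-0 was reduced 5.99-fold (log2 difference -2.58, SE 0.10, adjusted p = 1.73e-05, limma).

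AGP30 is an arabinogalactan protein, a heavily glycosylated protein of the cell surface and wall, and is described by the study as a pollen Ole e 1 allergen. Its log2 signal was 7.98, 7.96 and 8.02 in Fe-1 and 8.59 in Ler-0, against 6.003, 5.57 and 5.75 in Col-0, a 5.16-fold difference (log2 2.37, SE 0.18, adjusted p = 0.00045). The level was graded over the other accessions, with 8.01 in Nw-0, 7.51 in Bay-0, 7.18 in Ts-1 and 7.30 in Van-0. Ts-1 and Van-0 lay nearer to Bay-0 than to Col-0, and the Col-0 arrays were the lowest of all 11.

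AT2G36550, described by the study as similar to NLI interacting factor, showed the largest difference among the members called in Fe-1/Ler-0 against Col-0. Its log2 signal was 6.58, 6.83 and 6.86 in Fe-1 and 7.59 in Ler-0, against 4.11, 3.90 and 3.75 in Col-0, which is 8.24-fold (log2 3.04, SE 0.23, adjusted p = 0.00045). The Col-0 arrays were below their lower quartile of signal, which lay between 4.92 and 5.04 on the 11 arrays, so that the level in Col-0 is a weak signal. Nw-0 was low as well, at 4.93, although it is ZLL-dependent, and Bay-0 stood at 6.01. Ts-1 was low at 4.72, and Van-0, which is ZLL-independent, was at 6.14, above Bay-0.

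AT2G35820, listed by the study as an unknown protein, was 3.15-fold higher in Fe-1/Ler-0 relative to Col-0 (log2 1.65, SE 0.16, adjusted p = 0.00133). Its log2 signal was 9.01, 8.95 and 8.82 in Fe-1 and 9.31 in Ler-0, against 7.23, 7.70 and 7.18 in Col-0. The highest arrays were those of the ZLL-independent accessions Van-0, at 9.95, and Ts-1, at 9.63, while the ZLL-dependent Nw-0 and Bay-0 were at 7.74 and 7.47. The gene stands just past the 3-fold limit and was below it, at 2.94-fold to 2.99-fold, with renewed quantile normalisation, with median centring and without Col-0 replicate 1, Col-0 replicate 3 or Ler-0.

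**Figure D2:**
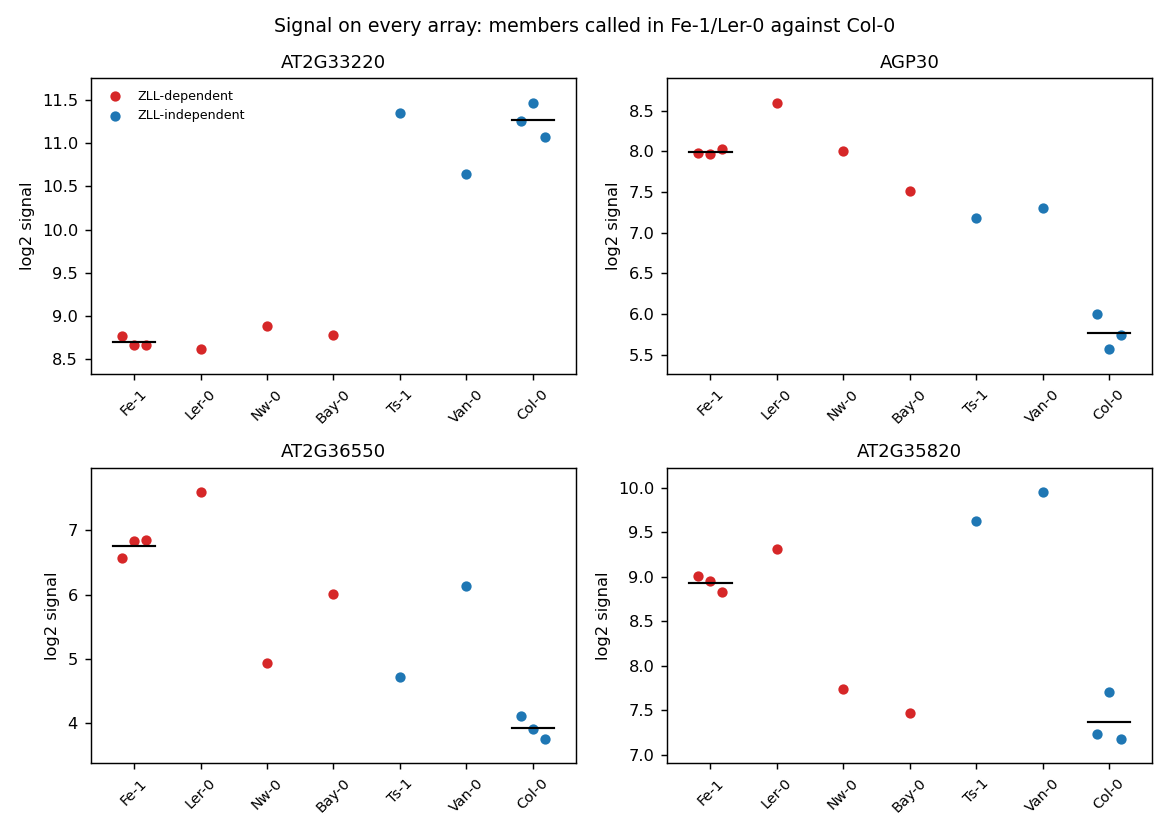
Log2 signal on every array (points) of the 4 members called in Fe-1/Ler-0 against Col-0, by accession, with ZLL-dependent accessions in red and ZLL-independent ones in blue; black lines are means of the accessions with 3 arrays. AT2G33220 splits the accessions by ZLL dependency, AGP30 is graded with Col-0 lowest, AT2G36550 is low in Nw-0, Ts-1 and Col-0, and AT2G35820 is highest in Van-0 and Ts-1.

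The called genes stand at places 7 (AT2G33220), 33 (AGP30), 132 (AT2G35820) and 163 (AT2G36550) among the 185 members in locus order, and none of the 5 measured neighbours on each side of each was called. Over all probe sets 0.703% were called, so none among so few neighbours is near that share. Around AT2G33220 their log2 differences ran from -0.11 to 0.45, around AGP30 from -0.55 to 0.79, around AT2G35820 from -0.19 to 0.36 and around AT2G36550 from -0.89 to 0.61. Genes between them that were not measured by name are left out of this count.

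Without the fold limit, 27 members passed the test in Fe-1/Ler-0 against Col-0 (14.6%, against 12.3% of all probe sets), 22 of them higher (11.9%, against 7.69%) and 5 lower (2.70%, against 4.65%). The median log2 difference was 0.06 both in the window and over all probe sets. Fe-1/Ler-0 arrays stood wholly above or below those of Col-0 for 46 members (24.9%, against 27.1%). Of the 23 that passed without reaching 3-fold, all but AT2G33360 differed by less than 2-fold.

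AT2G33360 was highest in Fe-1, with a log2 signal of 8.11, 7.93 and 7.96, while Ler-0 was at 6.94 and the Col-0 arrays at 6.27, 6.32 and 6.38. Relative to Col-0 it was 2.66-fold higher in Fe-1/Ler-0 (log2 1.41, SE 0.26, adjusted p = 0.0159), and 3.20-fold higher, past the limit, without the Ler-0 array. In 8 of 17 alternatives it did not pass, among them accession as a random block (adjusted p = 0.0776), the replicate number as a block (adjusted p = 0.054) and removal of any 1 of the Col-0 arrays (adjusted p from 0.0559 to 0.0639). Ler-0 was lower than Fe-1 (log2 difference -1.05, adjusted p = 0.00075) and lay close to Nw-0 (7.03), Bay-0 (6.94) and Van-0 (6.94).

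AT2G34300 was high in Fe-1, at 9.97, 10.04 and 10.01, and at 9.27 in Ler-0, against 8.98, 8.91 and 9.002 in Col-0 (log2 difference 0.86, adjusted p = 0.0272), and did not pass in 10 of 17 alternatives. Ts-1 and Van-0, at 9.92 and 9.90, were as high as Fe-1, and Nw-0 was as low as Col-0, at 9.002. The order of the accessions for this gene did not follow ZLL dependency.

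The further genes that were higher in Fe-1/Ler-0 included AT2G34340 (log2 difference 0.79, adjusted p = 0.0252), AT2G33735 (0.79, adjusted p = 0.00311), AT2G36220 (0.75, adjusted p = 0.0107), AT2G35730 (0.71, adjusted p = 0.0226) and AT2G36430 (0.61, adjusted p = 0.0262). AT2G36630 was lower (-0.89, adjusted p = 0.0049), as were AT2G34020 (-0.55, adjusted p = 0.0192) and AT2G33420 (-0.53, adjusted p = 0.00477). AT2G34340 was also above its Col-0 arrays (5.74, 6.39 and 5.72) in Nw-0 (6.57), Bay-0 (6.59), Ts-1 (6.71) and Van-0 (6.71). AT2G33420 was likewise below its Col-0 arrays (5.37 to 5.53) in Nw-0 (5.09), Bay-0 (5.04), Ts-1 (5.04) and Van-0 (4.97). AT2G36630 and AT2G35730 are weak signals, with 4.05 to 4.38 in Fe-1/Ler-0 and 4.93 to 5.35 in Col-0 for AT2G36630 and 4.54 to 5.05 in Fe-1/Ler-0 and 3.78 to 4.18 in Col-0 for AT2G35730. Several of these calls depend on the setting. Of 17 alternatives, AT2G34340 and AT2G36430 did not pass in 10 each, AT2G34020 in 8, AT2G36220 in 5, AT2G33420 in 3 and AT2G33735 in 2, and of 16, AT2G35730 did not pass in 8 and AT2G36630 in 3. For AT2G34020 the Van-0 array, at 8.47, was as low as Ler-0, at 8.36, and the Ts-1 array was the highest, at 9.52. The ZLL-dependent Nw-0 (9.37) and Bay-0 (9.34) were above the Col-0 arrays (9.11 to 9.26) for this gene.

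Among cell wall genes, 7 of 16 listed for the window were measured, and 3 rose in Fe-1/Ler-0 against Col-0, none fell and 4 did not pass the test, beside shares of 7.69% higher and 4.65% lower over all probe sets. AGP30 was made a member because it is on the study’s list. Besides AGP30 these were TBL37 (AT2G34070), a trichome birefringence-like protein of the family that acetylates wall polysaccharides (log2 difference 0.48, adjusted p = 0.00696), and XEG113 (AT2G35610), a glycosyltransferase that adds arabinose to wall glycoproteins (0.48, adjusted p = 0.0252). XTH32, a xyloglucan endotransglucosylase, differed by 0.08 (adjusted p = 0.713). TBL37 was at 9.25, 9.23 and 9.08 in Fe-1 and 9.21 in Ler-0, against 8.72, 8.77 and 8.63 in Col-0. The 4 Fe-1/Ler-0 arrays were all above the Col-0 arrays. XEG113 did not pass in 8 of 17 alternatives and TBL37 in 3. The median of the list was 0.13, beside 0.06 over all probe sets.

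Of the transcription factor and chromatin genes, 6 of 25 were measured, and 1 rose, 1 fell and 4 did not pass the test, beside 12.3% of all probe sets that passed in either direction. Neither call held in every alternative, and AGL29 did not pass in 9 of 17 alternatives and AT2G37000 in 7. The MADS-box gene AGL29 (AT2G34440) fell (log2 difference -0.70, adjusted p = 0.0247), with 6.38, 6.35 and 5.98 in Fe-1 and 5.84 in Ler-0, against 6.72, 6.84 and 6.95 in Col-0. Bay-0 (5.87), Nw-0 (6.32) and Van-0 (6.20) lay within the range of the Fe-1/Ler-0 arrays, and Ts-1 (6.64) was below the Col-0 arrays by little. AT2G37000 rose (0.42, adjusted p = 0.0149), with 6.35 to 6.42 in Fe-1/Ler-0, against 5.86 to 6.10 in Col-0. HRD, an AP2/ERF factor, and SWC2, a subunit of the chromatin remodelling complex that deposits the histone variant H2A.Z, differed by 0.12 (adjusted p = 0.48) and -0.02 (adjusted p = 0.917).

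AT2G33220 was counted on the list of mitochondrial genes, because MEE4 belongs to the GRIM-19 family of respiratory complex I subunits; of this list 4 of 9 were measured, and AT2G33220 was the 1 that fell. The other 3 did not pass the test; MBAC1, a carrier of basic amino acids in the mitochondrial membrane, differed by 0.12 (adjusted p = 0.347) and TO1, a mitochondrial thioredoxin, by -0.10 (adjusted p = 0.574). None of the measured members passed in the lists for plastids (3 of 11, among them the plastid division gene FTSZ2-1 at -0.02, adjusted p = 0.862), ribosomes (2 of 8), hormones (2 of 12), seed maturation (2 of 7) or cell division (2 of 8, among them the spindle checkpoint gene BUBR1 at 0.09, adjusted p = 0.512). Over all probe sets 12.3% passed in either direction, so few passes would be found in lists of this size. IKU1 (AT2G35230), which promotes endosperm growth and seed size, was at 7.05, 6.82 and 6.94 in Fe-1 and 6.88 in Ler-0, against 6.75, 6.67 and 6.31 in Col-0 (log2 difference 0.35, adjusted p = 0.104). None of the 11 meristem, polarity and small RNA genes listed between these loci among those the study names, and none of 12 genes named after embryo or gametophyte arrest mutants, was measured by name.

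Seed coat RNA was checked with BAN and DFR, pigment synthesis genes of the seed coat and the 2 of 8 seed coat markers measured by name. Their mean log2 signal was 5.45 to 9.14 in Fe-1/Ler-0, against 5.11 to 6.06 in Col-0, highest in Fe-1 replicate 2. BAN was at 5.07, 8.77 and 7.40 in Fe-1 and 5.26 in Ler-0, against 4.67, 5.95 and 4.995 in Col-0, and at 7.61 in Van-0. DFR was at 5.84, 9.51 and 7.53 in Fe-1, 7.97 in Ler-0 and 7.43 in Van-0, against 5.55, 6.16 and 5.51 in Col-0, so that Ler-0 was high in DFR though not in BAN. The arrays with high BAN (Van-0 and replicates 2 and 3 of Fe-1) were then left out. The same 4 members were called in Fe-1/Ler-0 against Col-0, beside 0.492% of all probe sets. Their log2 differences were -2.57 for AT2G33220, 2.52 for AGP30, 3.16 for AT2G36550 and 1.79 for AT2G35820. With the Ler-0 array left out too, Fe-1 replicate 1 stands alone against the 3 Col-0 arrays, so only the differences are given. They were -2.50, 2.21, 2.66 and 1.64 in the same order, and 1.79 (3.45-fold) for AT2G33360. This setting was chosen after the data were seen. The 2 endosperm markers measured of 8, AGL62 and IKU2, were below the lower quartile of signal on all 11 arrays. None of 8 embryo markers was measured by name, so the label of the tissue was not checked against them. The part of seed coat RNA in any of these differences, large or small, was not tested. Ler-0, which was high in DFR, stayed in the fit without the arrays with high BAN.

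All 4 ZLL-dependent accessions were then compared with the 3 ZLL-independent ones, since a gene whose level followed ZLL dependency would differ in each. AT2G33220 alone was called, 1 of 185 members (0.541%), against 0.0528% of all probe sets in either direction and 0.0440% lower in ZLL-dependent accessions. The study also lists this gene in its own comparison of the ZLL groups, which used these arrays. By the study, no gene of that comparison appeared closely linked to an FHE locus, although AT2G33220 is also on its list near FHE3. It proposes that these genes may act downstream of the modifiers, be unrelated to ZLL function, or be modifiers that the mapping missed. The log2 signal of AT2G33220 averaged 8.73 ± 0.10 (SD, n = 6 arrays) in ZLL-dependent accessions and 11.15 ± 0.32 (SD, n = 5 arrays) in ZLL-independent ones, a 5.37-fold difference (log2 -2.42, SE 0.13, adjusted p = 8.86e-06, limma). It stayed called with 1 mean per accession in place of the arrays (log2 -2.34, adjusted p = 0.0406), and without all Col-0 arrays (-2.26, adjusted p = 0.00516), in which Ts-1 and Van-0 alone stand for the ZLL-independent accessions. An exact two-sided permutation test over the 35 splits of the 7 accession means gave p = 0.0286, the smallest that the design allows. The permutation was run only on the 4 genes that the study lists near FHE3. That list was drawn from these arrays, so the permutation p is not independent of the choice of genes.

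AGP30, which is a member only through the list of the study, had the same permutation p, 0.0286, under the same limit. The lowest ZLL-dependent array, Bay-0 at 7.51, lay above the highest ZLL-independent one, Van-0 at 7.30. Its mean was 8.01 ± 0.34 in ZLL-dependent accessions (SD, n = 6 arrays) and 6.36 ± 0.82 in ZLL-independent ones (n = 5 arrays), 3.15-fold, at an adjusted p of 0.057. AGP30 did not pass in 17 of 22 alternatives. It passed without the Ts-1 array (3.63-fold, adjusted p = 0.0355) or the Van-0 array (3.70-fold, adjusted p = 0.0115), with median centring (3.04-fold, adjusted p = 0.0497) and without the lowest 25% of probe sets (adjusted p = 0.0485). Without all Col-0 arrays the log2 difference was 0.77 (adjusted p = 0.455), against 1.65 with them.

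AT2G36550 averaged 6.47 ± 0.91 in ZLL-dependent accessions and 4.52 ± 0.97 in ZLL-independent ones (SD, n = 6 and 5 arrays), 3.84-fold, with an adjusted p of 0.0983 and an exact permutation p of 0.171 over the accession means. Its groups overlapped, because Nw-0 was low and Van-0 high, and it was called without the Van-0 array (5.08-fold, adjusted p = 0.0216). In the other 21 of 22 alternatives AT2G36550 did not pass. AT2G35820 did not pass the test, with 8.55 ± 0.76 in ZLL-dependent and 8.34 ± 1.34 in ZLL-independent accessions (log2 difference 0.21, adjusted p = 0.885). Without all Col-0 arrays its difference turned to -1.24 (adjusted p = 0.571).

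Without the fold limit, 3 members passed between the ZLL groups (1.62%, against 0.448% of all probe sets). AT2G33220 was the 1 lower in ZLL-dependent accessions (0.541%, against 0.220%), and the 2 that were higher (1.08%, against 0.229%) were AT2G33735 (log2 0.60, adjusted p = 0.0411) and AT2G36220 (0.60, adjusted p = 0.0438). AT2G33735 was at 8.57, 8.53 and 8.48 in Fe-1, 8.26 in Ler-0, 8.21 in Nw-0 and 8.47 in Bay-0, against 7.93 in Ts-1, 8.13 in Van-0 and 7.59, 7.76 and 7.66 in Col-0. AT2G36220 was at 8.94, 9.12 and 9.25 in Fe-1, 8.81 in Ler-0, 8.71 in Nw-0 and 8.72 in Bay-0, against 8.30 in Ts-1, 8.45 in Van-0 and 8.25, 8.45 and 8.15 in Col-0. For both, every ZLL-dependent array was above every ZLL-independent one, by 0.08 for AT2G33735 and 0.26 for AT2G36220 at the nearest pair, and without all Col-0 arrays neither passed (adjusted p = 0.464 and 0.435). Each failed to pass in 13 of 22 alternatives. The arrays of the ZLL groups did not overlap for 7 members in all (3.78%, against 2.14%). The remaining 3, AT2G35730, AT2G35360 and SETH1, had log2 differences of 0.55, 0.47 and 0.41, with adjusted p from 0.0557 to 0.0688; AT2G35360 and SETH1 (AT2G34980), a gene for the synthesis of membrane lipid anchors, were chosen after their values were seen.

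Ler-0 and Col-0, whose alleles at FHE3 the mapping compared, differed in 8 members by a limma contrast in the fit of all 11 arrays with a coefficient for each accession (4.32%, against 1.63% of all probe sets), 6 higher (3.24%, against 0.950%) and 2 lower in Ler-0 (1.08%, against 0.681%). Ler-0 has 1 array and was assumed to vary like the accessions with 3. The log2 difference was 3.67 for AT2G36550 (SE 0.16, adjusted p = 1.46e-05), 2.82 for AGP30 (SE 0.16, adjusted p = 4.46e-05), 1.94 for AT2G35820 (SE 0.20, adjusted p = 0.000919) and -2.65 for AT2G33220 (SE 0.15, adjusted p = 4.65e-05). The other 4 called members were not called in Fe-1/Ler-0 against Col-0, and the Ler-0 array stood apart from the Fe-1 arrays in each.

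AT2G34840 was at a log2 signal of 4.52 in Ler-0, below the lower quartile, against 7.87, 7.74 and 7.72 in Col-0. All other arrays lay between 8.10 and 8.63, so that Ler-0 alone was low, 9.58-fold lower than Col-0 (log2 -3.26, SE 0.10, adjusted p = 2.17e-06) and 13.0-fold lower than Fe-1 (-3.70, SE 0.10, adjusted p = 2.36e-06). AT2G36690 had the opposite pattern, with 7.84 in Ler-0 against 5.33, 5.43 and 5.29 in Col-0 (log2 2.48, SE 0.12, adjusted p = 2.08e-05), and 5.02, 4.95 and 5.18 in Fe-1. Bay-0, at 6.31, and Nw-0, at 5.72, were above the ZLL-independent arrays, which lay between 5.09 and 5.46.

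AT2G33520 was at 8.59 in Ler-0, against 6.81, 6.56 and 6.70 in Col-0 (log2 1.90, SE 0.14, adjusted p = 0.000142), and the 7 arrays of the other accessions lay between 6.79 and 7.20. AT2G34315 was at 6.27 in Ler-0, against 4.41, 4.49 and 5.09 in Col-0 (log2 1.60, SE 0.25, adjusted p = 0.00531), and at 4.10 to 4.33 on the arrays of the other 5 accessions, below the lower quartile on each. Its fold was 3.04 and fell under 3, to between 2.78 and 2.86, with renewed quantile normalisation, with median centring and without Col-0 replicate 1 or 2. The arabinogalactan gene AGP30 and TBL37 (log2 0.50, adjusted p = 0.0227) were the 2 of 7 measured cell wall genes that passed in Ler-0 against Col-0, both higher, and AGL29 (2.001-fold, adjusted p = 0.00813) was the 1 of 6 transcription factor genes that passed, lower; over all probe sets 13.8% passed in either direction. Without the fold limit, 28 members passed in Ler-0 against Col-0 (15.1%).

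Ler-0 was also set against Fe-1, its partner in the grouped comparison, in a contrast added after the data were seen. It gave 3 called members (1.62%, against 1.93% of all probe sets). AT2G36690 (log2 2.79, SE 0.12, adjusted p = 1.05e-05) and AT2G34315 (2.05, SE 0.25, adjusted p = 0.00158) were the 2 higher in Ler-0 (1.08%, against 1.40%), and AT2G34840 was the 1 lower (0.541%, against 0.536%). AT2G33520 differed 2.90-fold (log2 1.54, adjusted p = 0.000373). AGP30 (log2 0.60, adjusted p = 0.0407) and AT2G36550 (0.84, adjusted p = 0.0139) were higher in Ler-0 than in Fe-1 as well, and AT2G33220 was at the same level within its error (-0.08, SE 0.15, adjusted p = 0.788). LEA18 (AT2G35300), a late embryogenesis abundant protein gene of the drying seed, was at 8.19 in Ler-0, against 6.88, 6.85 and 7.47 in Fe-1 (1.12, adjusted p = 0.0226), and at 7.63, 7.98 and 7.90 in Col-0.

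**Figure D3:**
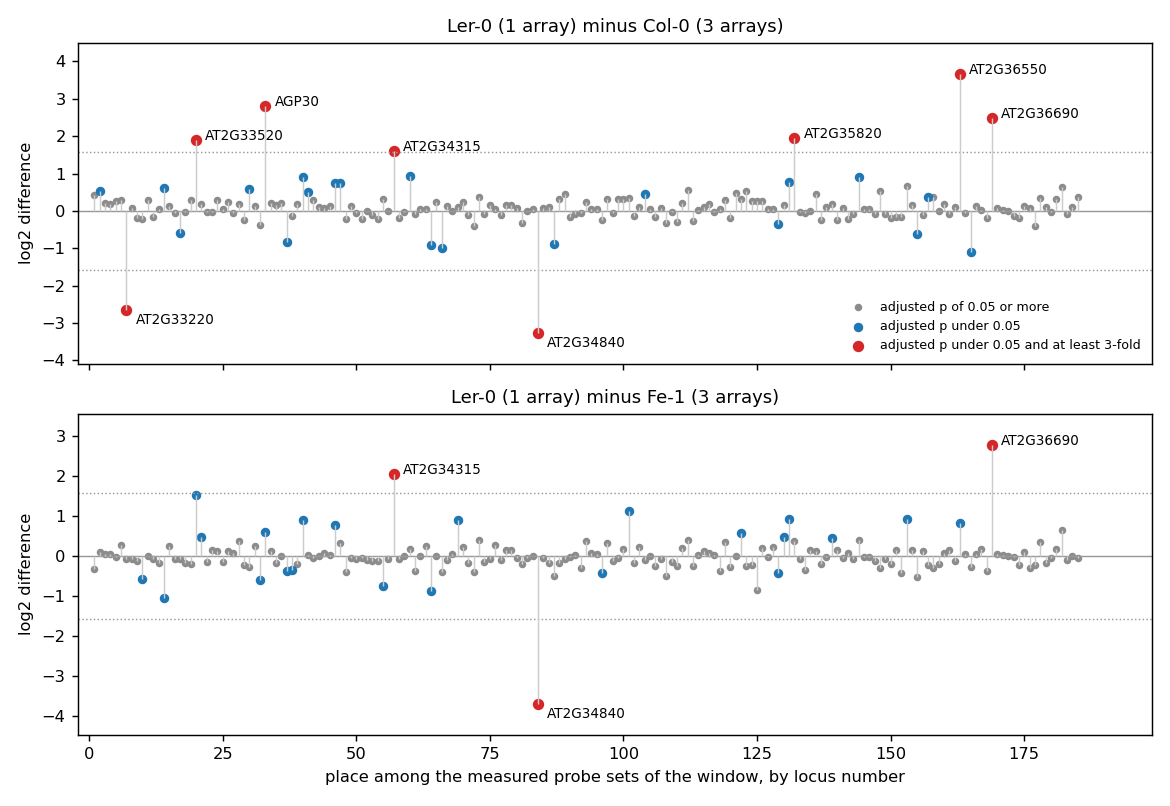
Difference in log2 signal of each of the 185 members in the order of their locus numbers, for Ler-0 minus Col-0 (top) and Ler-0 minus Fe-1 (bottom); dotted lines mark 3-fold. The 8 members called in the top panel are spread over the window, and 3 of them, AT2G34315, AT2G34840 and AT2G36690, are also called in the bottom panel.

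Nw-0, Bay-0, Ts-1 and Van-0 have 1 array each, and members at least 3-fold from the Col-0 mean were counted without a test. In Nw-0 they were 2 (1.08%, against 0.985% of all probe sets), AT2G33220 at -2.38 and AGP30 at 2.23 on the log2 scale. In Bay-0 they were 3 (1.62%, against 1.41%), AT2G33220 at -2.48, AGP30 at 1.74 and AT2G36550 at 2.08. In Ts-1 they were 2 (1.08%, against 1.15%), AT2G35820 at 2.26 and AT2G35310 at -3.07, and in Van-0 also 2 (1.08%, against 1.28%), AT2G35820 at 2.58 and AT2G36550 at 2.21. All of these except AT2G35310 are members called in Fe-1/Ler-0 against Col-0.

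AT2G35310, known as REM23 (reproductive meristem 23) and by that name one of a family of plant DNA-binding proteins, was low in Ts-1 alone, at a log2 signal of 6.22. The other 10 arrays lay between 9.11 and 9.55, and the F test over the 7 accessions gave an adjusted p of 8.3e-06. Its 3 Fe-1 arrays, at 9.34, 9.35 and 9.30, and its 3 Col-0 arrays, at 9.28, 9.29 and 9.28, differed by little (log2 difference of Fe-1/Ler-0 against Col-0 0.00, adjusted p = 0.986).

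**Figure D4:**
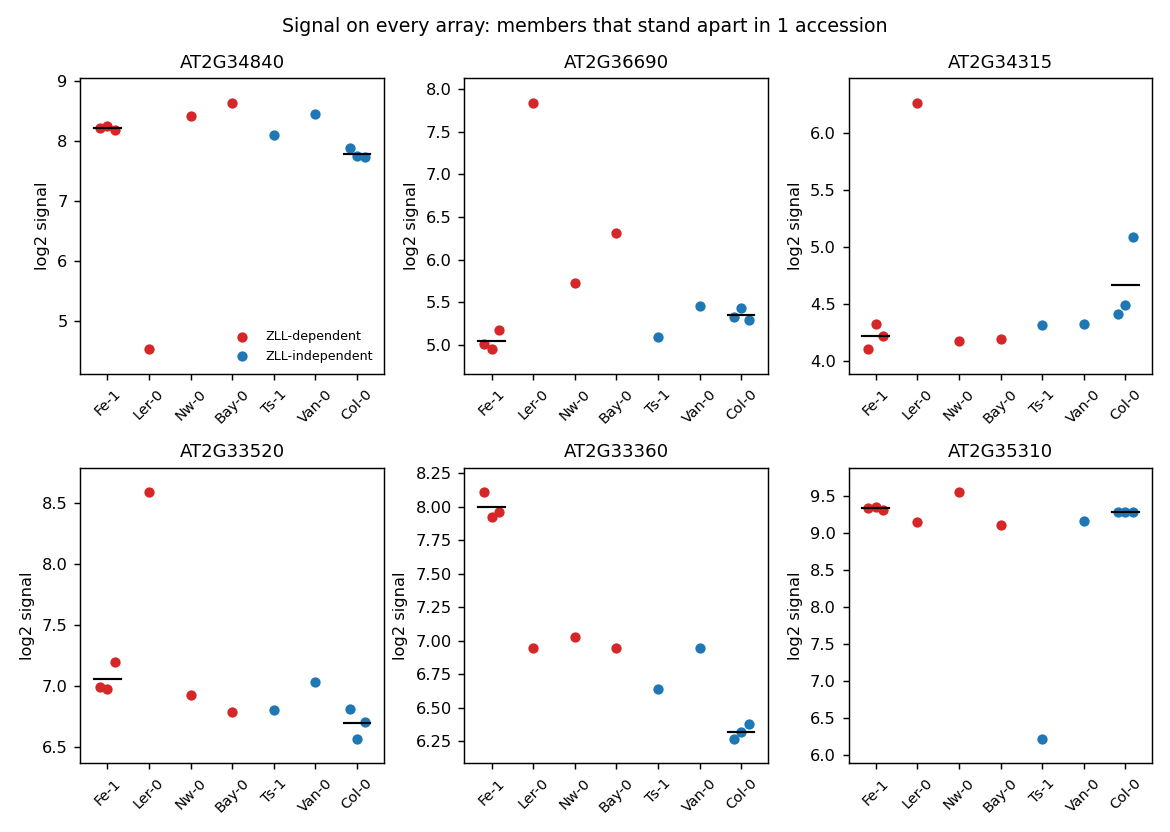
Log2 signal on every array (points) of 6 members in which 1 accession stands apart, with ZLL-dependent accessions in red and ZLL-independent ones in blue; black lines are means of the accessions with 3 arrays. Ler-0 stands alone in AT2G34840, AT2G36690, AT2G34315 and AT2G33520, Fe-1 in AT2G33360 and Ts-1 in AT2G35310.

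The 10 members whose accession means spanned at least 3-fold were thus the 4 called in Fe-1/Ler-0 against Col-0, the other 4 called in Ler-0 against Col-0, AT2G33360 and AT2G35310. Ler-0 had the highest mean in 5 of them and Col-0 the lowest in 5. The 2 probe sets of AT2G35450, the 1 gene measured more than once, had log2 differences in Fe-1/Ler-0 relative to Col-0 of 0.07 (adjusted p = 0.537) and -0.10 (adjusted p = 0.522), and their accession means spanned 0.42 and 0.58 on the log2 scale.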

How the data were processed

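The authors ran RMA on the 11 arrays (background correction, quantile normalisation and a summary per probe set) and deposited log2 values, which were taken as they stand; neither the version of RMA nor the chip definition was found in the sources. After removal of 64 chip controls, 22746 probe sets remained. Probe sets were designed on the Col-0 sequence; how sequence differences between accessions bear on a signal was not tested, since probe values were not used here. Median log2 signal per array was 7.57 to 7.71, and correlations across probe sets were 0.996 to 0.997 within and 0.978 to 0.988 between accessions. The number of arrays limits the precision.

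The platform annotation names 1 gene for 13513 probe sets, several genes for 503 and none for 8730. The TAIR10.1 gene table, to which 13436 could be matched, served for names and gene order only. Within the window, 161 members are known by locus alone and 2 belong to a type that may cross-hybridise. No sequences were used.

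Limma 3.58.1 in R 4.3.3 (lmFit, eBayes) was fitted across all 22746 probe sets, and p was adjusted over all of them by Benjamini-Hochberg. Every difference is the group named first minus the other. Only the 7 arrays of these accessions entered the fit of Fe-1/Ler-0 against Col-0, otherwise all 11. The fits were tested on simulated data. Labels call the replicates biological. Members and gene lists were chosen with earlier results of these data known. List members were counted at an adjusted p under 0.05 with any fold, and the lists were drawn up from general knowledge of the loci. Named genes are those past the threshold in Fe-1/Ler-0 against Col-0, between the ZLL groups or in Ler-0 against Col-0, those the study lists near FHE3, the 10 largest increases and decreases at an adjusted p under 0.05 in the grouped comparisons, the 10 widest ranges of accession means, and at most 4 genes per list, by adjusted p.

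The alternatives were an unadjusted p; no fold limit, 2-fold, or 1.5 on the log2 scale; renewed quantile normalisation; median centring; removal of the 25% of probe sets with the lowest signal or of cross-hybridising types; an intensity trend with a robust fit; the replicate number as a block; means of accessions; a random block for accession; and removal of Fe-1 replicates 2 and 3 with Van-0, or of each array. Chosen after seeing the data were Ler-0 against Fe-1, the ZLL comparison without all Col-0 arrays, and both grouped comparisons without Ler-0, Van-0 and replicates 2 and 3 of Fe-1. Plots were made with matplotlib.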

Additional observations from a re-analysis of the deposited data

Results flagged for a closer look

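Of 123 groups of 4 to 6 arrays examined for the named genes, 18 held an array that stood far from the others; chance gives about 1 in 20 groups. That rate holds for samples of 1 kind, while these groups pool accessions and the genes were chosen in part for differences among accessions, so nothing is read from the excess. The Ler-0 array was the one that stood apart in 11 of these, in the gene's Fe-1/Ler-0 group and in some also among the ZLL-dependent arrays. It was at a log2 signal of 8.59 for AT2G33520 (both groups), 6.27 for AT2G34315 (both groups), 4.52 for AT2G34840 (both groups), 8.59 for AGP30, 7.84 for AT2G36690, 6.94 for AT2G33360, 8.36 for AT2G34020 and 9.27 for AT2G34300. Among the ZLL-independent arrays, Ts-1 stood apart for AT2G35310, at 6.22, and for the glycosyltransferase gene UGT73C1, at 4.78. Col-0 replicate 3 stood apart for AT2G34315, at 5.09, and Col-0 replicate 1 for AT2G33710, at 4.36. UGT73C1 and AT2G33710 were below the lower quartile of signal on every array. Among the ZLL-dependent arrays, Bay-0 stood apart for AT2G36630, at 5.004, and Fe-1 replicate 3 for AT2G35730, at 5.05. Fe-1 replicate 2 stood apart for AT2G33160 in the Fe-1/Ler-0 group, at 5.50, where the other 3 arrays all read 5.69.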

How the results depend on the processing

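In Fe-1/Ler-0 against Col-0, 4 members were called, with 27 without the fold limit, 3 to 4 when 1 array was left out, and 0 with accession means, where 2 means stand against 1 (4 at an unadjusted p with the 3-fold limit, limma). Over all probe sets the share was 0.703%, and 12.3% without the fold limit. It was 0.576% to 1.40% when 1 array was left out, and 0% with accession means. For the ZLL groups 1 was called (0.0528% of all probe sets), with 3 at an unadjusted p (0.339%) and 3 without the fold limit (0.448%). There were 2 with median centring (0.0703%) and 2 without the lowest 25% of probe sets (0.0938%). With 1 array left out there were 1 to 3, 2 without Ts-1 (0.0615%) and 3 without Van-0 (0.215%). AT2G33220 was among them each time. The F test called 53, with 34 to 54 when 1 array was left out, lowest without Col-0 replicate 1, and 17 without Van-0 and replicates 2 and 3 of Fe-1, where fewer arrays are fitted. Ler-0 against Col-0 gave 8 (28 without the fold limit, 7 to 8 with 1 array left out), and Ler-0 against Fe-1 gave 3 (25 without the fold limit, 6 at 2-fold, 3 to 4 with 1 array left out). Over all probe sets the main shares were 31.0% for the F test, 1.63% for Ler-0 against Col-0 and 1.93% for Ler-0 against Fe-1. Without the fold limit 13.8% passed in Ler-0 against Col-0. For the other counts of these comparisons no share is given, so nothing is read from them about the window. The difference of AT2G35820 between the ZLL groups, 0.21 and not past the test, was -0.62 with accession means, -0.40 with accession as a random block and -1.24 without all Col-0 arrays, and ran from -0.077 to 0.61 when 1 array was left out, below 0 without Col-0 replicate 1 or 3 and highest without Van-0; the cause was not tested. Without Ler-0, Van-0 and replicates 2 and 3 of Fe-1, 1 member was called between the ZLL groups (0.11% of all probe sets). In the first comparison this leaves 1 Fe-1 array, so no count is given. With the replicate number as a block, the counts were 4, 1, 37, 8 and 3 in the order given here. Same-numbered Fe-1 and Col-0 arrays deviated together with correlations of 0.231, 0.0354 and 0.112. Differently numbered ones had correlations from -0.151 to 0.0372, and each Col-0 array correlated most with the Fe-1 array of its number. Whether the numbers pair the samples was not tested. Weak signals, as in AT2G36550 in Col-0, AT2G34840 in Ler-0 and AT2G34315 in most accessions, limit how exactly a fold is known, and 5 accessions rest on 1 array each.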
